A study of Mus musculus with 18 samples.

Results

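Antrum mature pit cells were compared with antrum pre-pit cells of the mouse stomach to describe which genes differed between the earlier and the later stage of the pit cell, the mucous cell that lines the gastric surface. The cells were taken by the cluster numbers of the deposited annotation: cluster 1, named antrum mature pit by the study, held 49 cells, and cluster 6, antrum pre-pit, held 32 cells, together 81 of the 491 cells of dataset 1 and of the 4484 annotated cells of both datasets. All cells came from untreated 10-week-old male C57BL/6J mice, genotype WT, prepared as 2 pools of 3 mice by different operators, and each pool was sorted into 3 plates of 384 wells. Pool 1 gave 29 mature pit and 18 pre-pit cells, and pool 2 gave 20 and 14. Each pool held antrum and corpus cells, and the labels used here give no region, so that nothing but the cluster tells which region a cell came from. The cells were measured by Quartz-Seq2, in which each well of a plate carries its own barcode and each captured mRNA molecule a unique molecular identifier (UMI), so that a molecule is counted once.

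Pit cells, also called foveolar or surface mucous cells, arise from dividing progenitor cells in the isthmus of the gastric gland, move up the pit towards the lumen and are shed within days. On the way they load their apical cytoplasm with the gel-forming mucin MUC5AC, with trefoil factors and with gastrokines, and the layer they secrete shields the epithelium from acid and pepsin. In the antrum, the distal part of the stomach, the glands below the pits hold mucous and endocrine cells in place of most of the acid-secreting parietal and pepsinogen-secreting chief cells of the corpus.

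Mature pit cells held more UMIs than pre-pit cells, with a median of 60691 UMIs (23390 to 128567) and 7054 detected genes against 38964.5 UMIs (11118 to 83957) and 6647 genes. A median of 4.60% of their UMIs were mitochondrial, against 4.97% in pre-pit cells. For each pool the UMIs of a cluster's cells were added up, which gave 1886397 and 1186303 UMIs for mature pit and 723448 and 483675 UMIs for pre-pit cells, and levels are given as CPM, counts scaled to 1e+06 per TMM-scaled sum, with the mean ± SD over n = 2 pools. The 81 cells used 73 well barcodes, 8 of which occurred on more than 1 plate, and doublets were left to the singlet gate of the sorter. None of the 4 immune markers (*Ptprc*, *Cd3e*, *Cd74*, *Lyz2*) had a UMI in either cluster, and the 3 endothelial and 3 stromal markers stayed at or below 2.76 in 1e+06 UMIs. Chief cell markers, mostly *Pgc*, were lower in mature pit cells. They had 434 and 1768 in 1e+06 UMIs in the pools, against 6245 and 4336 in pre-pit cells. The chief cell markers *Cblif* and *Pga5* did not pass (edgeR, adjusted p = 0.629 and 0.498). In the corpus the study found *Pgc* mRNA in most epithelial cells, at a level that rose by degrees from mature pit towards chief cells. The part of cells or RNA from gland cells in the comparison was not tested. The clusters had been formed by the study from these same counts, so the adjusted p-values (Benjamini-Hochberg, edgeR's quasi-likelihood test) say how far apart the clusters lay relative to the spread between pools, and with pools of the same mice on both sides they cover no more than that spread.

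Before any comparison, 2 of the 32 pre-pit cells stood apart from their cluster (plot of goblet and pit marker UMIs per cell). One, from pool 1, had 544 UMIs of the goblet cell markers *Muc2*, *Clca1* and *Spink4* and 30 UMIs of the pan pit markers *Gkn2*, *Gkn1*, *Tff1* and *Muc5ac*. The other, from pool 2, had 2315 and 16 UMIs of these markers. They carried 1142 and 2358 UMIs of *Tff3*, the trefoil peptide of goblet cells, and 644 and 3679 UMIs of *Zg16*, a lectin of goblet cell mucus. No other antrum pit cell had more goblet than pan pit UMIs. The pair held 3.66% of all pre-pit UMIs, and named results that rest on them are given with and without them. Leaving them out was decided after the data had been seen.

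**Figure D1:**
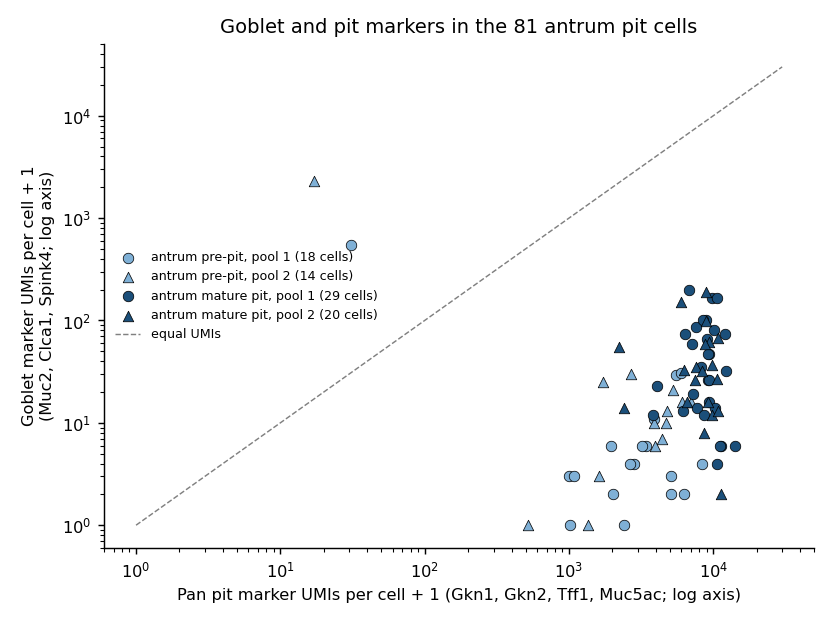
Goblet marker UMIs (*Muc2*, *Clca1*, *Spink4*; vertical axis) against pan pit marker UMIs (*Gkn2*, *Gkn1*, *Tff1*, *Muc5ac*; horizontal axis) of the 81 antrum pit cells, both plus 1 on log axes, 1 point a cell, with circles for pool 1, triangles for pool 2 and a dashed line at equal UMIs. The 2 pre-pit cells with 544 and 2315 goblet UMIs lie apart at the low end of the pan pit axis.

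A further 4 antrum pit cells, all of pool 1, had at least 3 UMIs of *Basp1*, a corpus pit marker. They were 3 mature pit cells with 3, 25 and 45 *Basp1* UMIs and 1 pre-pit cell with 9. *Krt7*, an antrum marker, had between 0 and 2 UMIs in the 3 mature cells and 8 in the pre-pit cell. Without these 4 cells and the 2 goblet-marker cells 1336 genes were called between the clusters, against 1427 with all cells.

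The study gives *Aqp3*, *Krt20* and *Krt7* as markers of mature or antrum pit cells and found them in these libraries, so their direction here is a description and no independent evidence. The gene *Aqp3* (chromosome 4, 41092722 to 41098183, minus strand of GRCm39), which encodes a channel for water and glycerol, was at 437 and 425 CPM in mature pit cells of pools 1 and 2 and at 25.3 and 28.5 CPM in pre-pit cells. The pools lay close together within each cluster and far apart between clusters. Means of 431 ± 8.69 and 26.9 ± 2.31 CPM gave a log2 fold change, mature minus pre-pit, of 4.01 (SE 0.24, adjusted p = 2.99e-08), and mature pit cells were the higher on 6 of 6 plates. A UMI of *Aqp3* was found in 48 of 49 mature pit cells (98.0%) and in 12 of 32 pre-pit cells (37.5%). After each cell had been thinned to 10000 UMIs the shares were 89.8% and 18.8%. Parietal cells, which should lack the gene, had 0 of 57 cells with a UMI, which allows up to 5.26% of cells with a UMI, at a median depth of 64127 UMIs.

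*Krt20* (chromosome 11, 99319227 to 99328985, minus strand), a keratin of the gastrointestinal surface epithelium, was at 975 and 705 CPM in mature pit cells and at 59.9 and 116 CPM in pre-pit cells. Of its pre-pit UMIs, 59.8% lay in the 2 goblet-marker cells. Without them pre-pit cells had 48.7 and 10.8 CPM, and the log2 fold change went from 3.32 (SE 0.30, adjusted p = 1.63e-06) to 4.65 (SE 0.35, adjusted p = 7.59e-08). *Krt7* (chromosome 15, 101308924 to 101328194, plus strand), a keratin of simple epithelia, was at 904 and 1128 CPM against 298 and 285 CPM, a log2 fold change of 1.80 (SE 0.35, adjusted p = 0.00203). Mature pit cells were the higher on 6 of 6 plates for both keratins. UMIs of *Krt7* were found in 47 of 49 mature (95.9%) and 25 of 32 pre-pit cells (78.1%), or 91.8% and 65.6% after thinning, against 26.3% and 7.02% of the parietal cells.

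**Figure D2:**
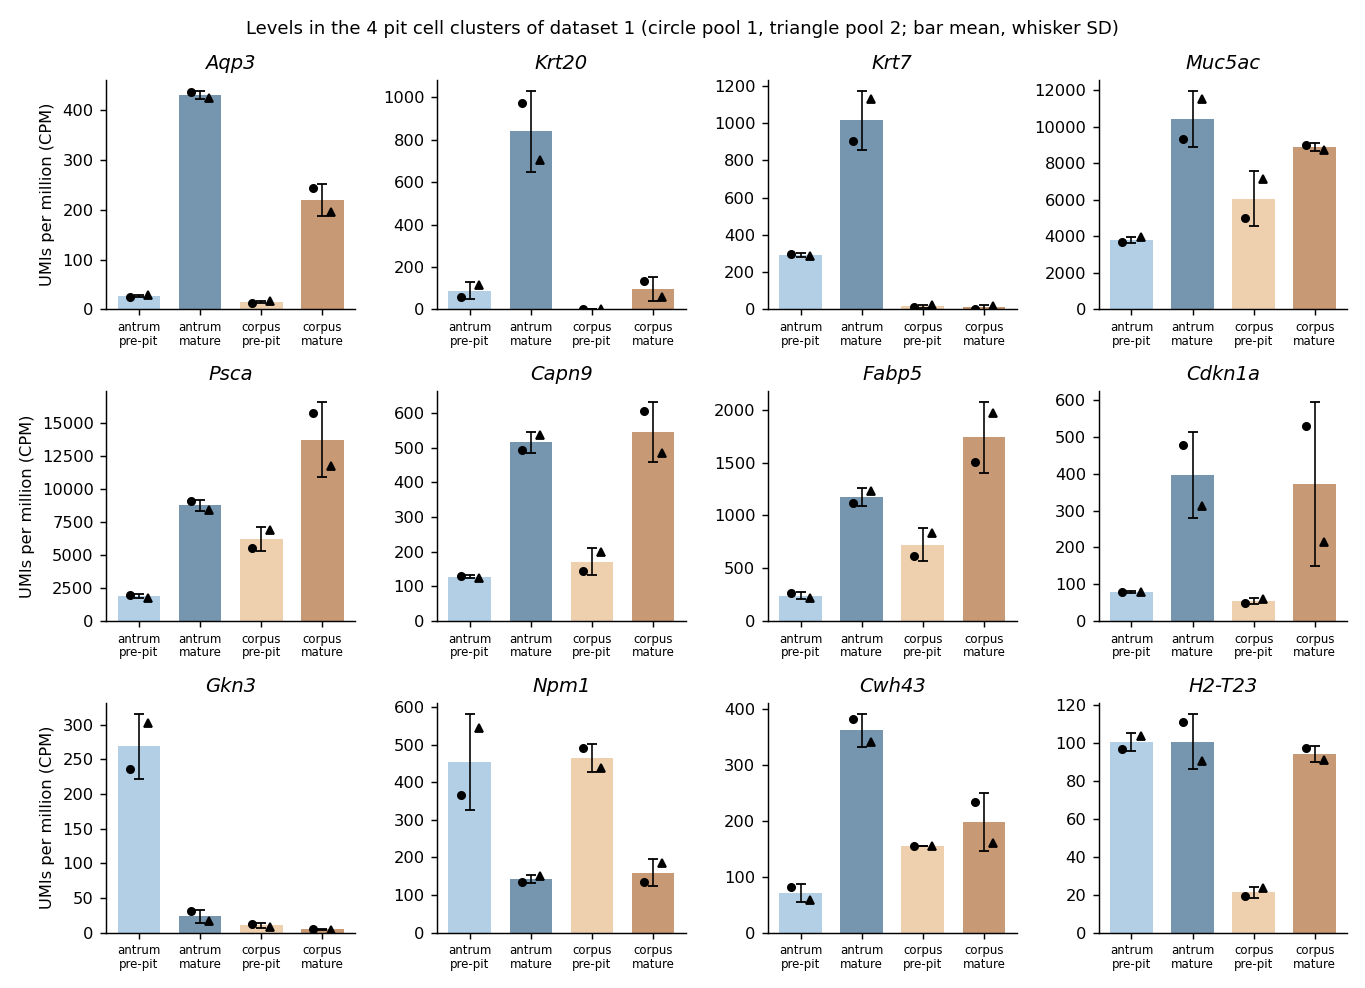
Levels in CPM (vertical axes, linear, from 0) of 12 genes in the 4 pit clusters of dataset 1. Bars are means over 2 pools, whiskers the SD, circles pool 1 and triangles pool 2; *Aqp3* in antrum mature pit cells stands at 437 and 425 CPM against 25.3 and 28.5 CPM in antrum pre-pit cells, and *Gkn3* has the opposite order.

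Across genes, 1427 of 10229 (14%) had an adjusted p under 0.05. Mature pit cells had the higher level for 848 of them (8.29%) and the lower for 579 (5.66%). Without the 2 goblet-marker cells 1489 of 10208 genes passed (14.6%), 908 higher (8.89%) and 581 lower (5.69%). Of the genes called with all cells, 822 of the 848 and 537 of the 579 were called again. Without the pair 26 higher calls were lost and 86 gained, and 42 lower calls were lost and 44 gained. With all cells 25 of the 579 genes called lower (4.32%) had over 50% of their pre-pit UMIs in these 2 cells. The median log2 fold change over all genes was 0.00 in both fits. The number called rested on each of the 4 sums: it was 624 without the mature pit sum of pool 1, 670 and 847 without the pre-pit sums of pools 1 and 2, and 958 without the mature pit sum of pool 2, where the remaining sum of a cluster is taken to vary like the other cell types. Below, changes are log2 fold changes, mature minus pre-pit, unless said otherwise.

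**Figure D3:**
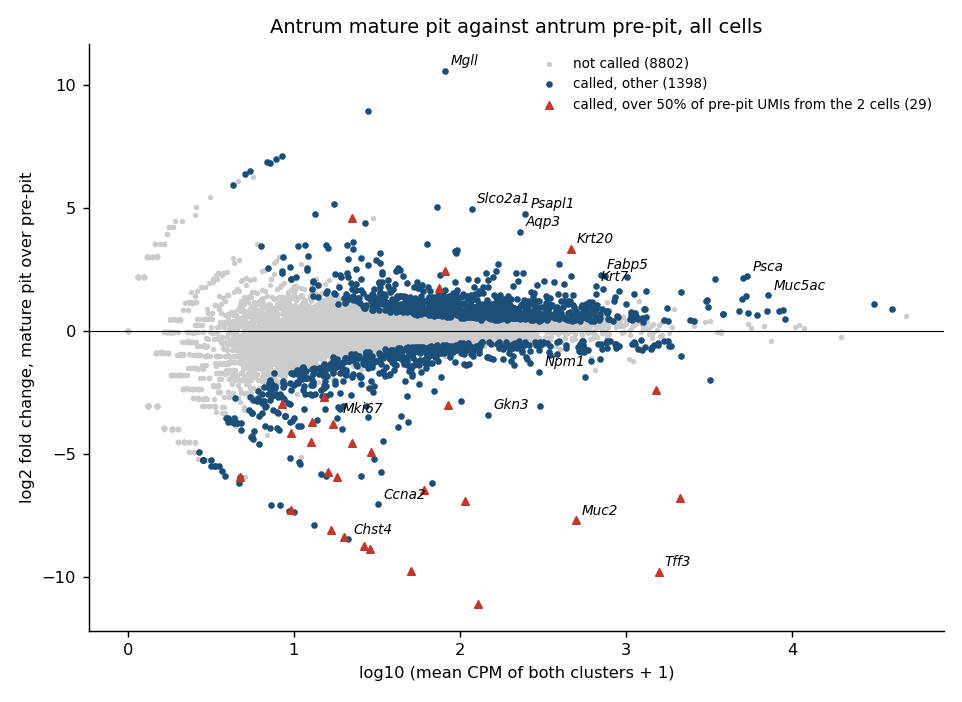
Log2 fold change of each of the 10229 genes tested (mature pit minus pre-pit, vertical axis) against the log10 of its mean CPM plus 1 (horizontal axis). Grey points did not pass an adjusted p of 0.05; of the 29 called genes with over 50% of their pre-pit UMIs in the 2 goblet-marker cells (triangles), 25 lie below 0. Fitted values of genes with no UMI in one cluster depend on the prior count and are no measured folds.

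The 12 largest rises included enzymes, membrane transporters and a precursor of the cornified envelope. *Mgll* (chromosome 6, 88652108 to 88805342, plus strand), which encodes monoacylglycerol lipase, had 329 and 118 UMIs in mature pit cells of the pools, or 204 and 117 CPM, and none in pre-pit cells. Against a floor of 3 UMIs in each pre-pit sum this is at least 31.8-fold higher (edgeR, adjusted p = 0.000124). Its UMIs were spread over 35 of 49 mature pit cells (71.4%, 51.0% after thinning), and none of 57 parietal cells held one. *Cybrd1*, a ferric reductase of absorptive surfaces, also had no UMI in pre-pit cells and 46.6 and 61.7 CPM in mature pit cells, at least 10.7-fold higher (adjusted p = 4.80e-05), but 14 of 49 cells (28.6%, 12.2% after thinning, against 1.75% of parietal cells) held all of it and the highest cell had 31.4%. By the same floor *Grk5*, a kinase of G protein-coupled receptors, was at least 2.95-fold higher, *Sema7a*, a membrane-anchored semaphorin, at least 2.69-fold and *Prom2*, a prominin of plasma membrane protrusions, at least 2.45-fold, with adjusted p of 0.00121, 0.0114 and 0.0156.

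*Slco2a1* (chromosome 9, 102865911 to 102973201, plus strand), the prostaglandin transporter, stood at 238 and 214 CPM in mature pit cells and 6.65 and 8.15 CPM in pre-pit cells, a log2 fold change of 4.95 (SE 0.39, adjusted p = 4.29e-07). *Psapl1* (chromosome 5, 36361365 to 36363912, plus strand), a prosaposin-like gene, was at 545 and 401 against 22.6 and 10.2 CPM, with 4.75 (SE 0.35, adjusted p = 2.93e-07). Neither gene had a pool of one cluster near a pool of the other. *Sprr1a*, a small proline-rich protein of the cornified envelope, had 102 and 173 CPM in mature pit cells and 0 and 10.2 CPM in pre-pit cells, a log2 fold change of 5.02 (SE 0.74, adjusted p = 0.000235). For 4 further genes the pre-pit sums held 1 to 3 UMIs in all. For these the ratio of the summed UMIs, each divided by the TMM-scaled total of its cluster, is given. Its exact 95% counting interval covers counting error only. This scaled ratio was 40 (6.99 to 1600) for *Kcnj16*, an inward rectifier potassium channel, and 31.5 (5.45 to 1261) for *Dhrs9*, a retinol dehydrogenase. It was 25.5 (6.89 to 213) for *B3galt5*, a galactosyltransferase, and 22.2 (7.45 to 109) for *Cfap45*, named for cilia and flagella. Both *B3galt5* UMIs of pre-pit cells lay in 1 of the goblet-marker cells, and without the pair, with no UMI left, it was at least 7.74-fold higher against the floor of 3 UMIs. *Kcnj16* stood at 298 and 155 CPM in corpus mature pit cells of dataset 1, against 33.6 and 29.8 CPM in antrum mature pit cells. Without the goblet-marker and *Basp1* cells its antrum log2 fold change went from 5.13 to 4.37 (SE 1.10, edgeR, adjusted p = 0.0110).

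Of the 12 genes with the largest falls over all cells, 9 drew at least 97.2% of their pre-pit UMIs from the 2 goblet-marker cells (*Ccl6*, *Tff3*, *Tm4sf4*, *Hepacam2*, *Cldn3*, *Muc3a*, *Cdhr5*, *Muc2* and *Gm1123*). *Muc2*, the mucin of intestinal goblet cells, had 218 and 833 UMIs in the pre-pit sums, all of them in these cells. *Tff3* had 1144 and 2361 UMIs, of which 1142 and 2358 did. The other 3 genes fell with and without the pair. *Chst4* (chromosome 8, 110753551 to 110766372, minus strand), a sulfotransferase that acts on N-acetylglucosamine of mucins, had no UMI in mature pit cells and 29.3 and 51.0 CPM in pre-pit cells, at least 16.5-fold lower against 3 UMIs in each mature pit sum (edgeR, adjusted p = 0.000113), and at least 12.6-fold without the pair. Its UMIs came from 12 of 32 pre-pit cells and from 0 of 49 mature pit cells, which allows up to 6.12% of cells with a UMI. *Ppp1r1b*, a phosphatase regulator known from dopamine signalling, was at 0 against 16.0 and 20.4 CPM, at least 7.5-fold lower (adjusted p = 0.000181). *Ccna2* (chromosome 3, 36619014 to 36626299, minus strand), cyclin A2 of S and G2 phase, had 1 UMI in mature pit cells and 83 in pre-pit cells.

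The 12 largest falls without the 2 cells were *Chst4*, *Ppp1r1b*, *Ccna2*, *Knstrn*, *Birc5*, *Gsdmc4*, *Ccnb2*, *Cdca3*, *Mki67*, *Cdkn3*, *Ube2c* and *Gkn3*. *Gkn3* (chromosome 6, 87360238 to 87365917, minus strand), a gastrokine known from antral and neck mucous cells, went from 235 and 302 CPM in pre-pit cells to 30.5 and 16.9 CPM in mature pit cells (log2 fold change -3.42, SE 0.44, adjusted p = 6.73e-05). It thus ran against *Gkn1* and *Gkn2*, the other gastrokines. In mature pit cells 1 cell held 50% of its UMIs. *Cdca3*, a gene of mitotic entry, was at 99.8 and 57.1 CPM in pre-pit and 7.46 and 1.99 CPM in mature pit cells (log2 fold change -3.91, SE 0.48, adjusted p = 3.82e-05). *Cdkn3*, a phosphatase of cyclin-dependent kinases, went from 63.8 and 36.7 to 6.84 and 0.994 CPM (log2 fold change -3.49, SE 0.49, adjusted p = 0.000124). The mitotic genes *Knstrn*, *Birc5*, *Ccnb2*, *Mki67* and *Ube2c* fell likewise and are given with the proliferation genes. *Gsdmc4*, of the gasdermin C family, had 88 UMIs in pre-pit and 3 in mature pit cells, a TMM-scaled ratio of 61.6 (95% counting interval 20.4 to 304).

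The promoters of 6 of these genes are shown for the short motifs they hold: 2 of genes that fell and 4 of genes that rose. The 250 bases before the transcript start were taken from RefSeq promoters and placed on GRCm39 by an exact match that was unique for each. Capitals mark TTTGAA, the core of the cell cycle homology region, CCAAT, the box bound by NF-Y, and TGANTCA, the site of AP-1 factors, each on either strand. *Ccnb2* (chr9:70328837-70329086, minus strand) and *Ube2c* (chr2:164611599-164611848, plus strand) fell. *Cybrd1* (chr2:70948148-70948397, plus strand), *Psapl1* (chr5:36361115-36361364, plus strand), *Sprr1a* (chr3:92393189-92393438, minus strand) and *Dhrs9* (chr2:69210556-69210805, plus strand) rose. These 4 are the only ones of the 15 markers and largest rises searched that hold TGANTCA. That all 4 hold it therefore follows from which genes are shown.
Ccnb2: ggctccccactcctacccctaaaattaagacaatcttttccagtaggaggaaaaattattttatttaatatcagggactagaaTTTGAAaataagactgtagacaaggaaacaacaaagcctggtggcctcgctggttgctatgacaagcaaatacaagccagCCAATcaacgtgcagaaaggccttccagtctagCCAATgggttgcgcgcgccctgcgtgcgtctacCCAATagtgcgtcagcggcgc
Ube2c: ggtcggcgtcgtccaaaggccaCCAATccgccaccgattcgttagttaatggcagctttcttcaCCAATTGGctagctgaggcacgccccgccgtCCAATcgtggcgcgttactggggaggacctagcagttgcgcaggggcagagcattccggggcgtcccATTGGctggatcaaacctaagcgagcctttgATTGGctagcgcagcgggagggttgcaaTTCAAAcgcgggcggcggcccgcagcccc
Cybrd1: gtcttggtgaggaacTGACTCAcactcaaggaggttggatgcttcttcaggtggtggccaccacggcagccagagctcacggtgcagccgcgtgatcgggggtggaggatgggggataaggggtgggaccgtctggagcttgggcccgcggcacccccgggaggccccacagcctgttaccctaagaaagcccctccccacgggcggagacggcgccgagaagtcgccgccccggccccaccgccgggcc
Psapl1: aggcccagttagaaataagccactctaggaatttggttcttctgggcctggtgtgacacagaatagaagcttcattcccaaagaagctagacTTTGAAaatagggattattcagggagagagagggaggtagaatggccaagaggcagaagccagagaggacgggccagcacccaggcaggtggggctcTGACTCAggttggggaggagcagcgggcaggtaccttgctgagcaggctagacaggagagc
Sprr1a: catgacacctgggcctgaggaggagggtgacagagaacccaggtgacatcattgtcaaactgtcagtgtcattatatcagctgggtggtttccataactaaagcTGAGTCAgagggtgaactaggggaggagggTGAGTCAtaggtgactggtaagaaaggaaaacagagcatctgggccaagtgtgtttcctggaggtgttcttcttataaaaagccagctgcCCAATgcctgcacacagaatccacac
Dhrs9: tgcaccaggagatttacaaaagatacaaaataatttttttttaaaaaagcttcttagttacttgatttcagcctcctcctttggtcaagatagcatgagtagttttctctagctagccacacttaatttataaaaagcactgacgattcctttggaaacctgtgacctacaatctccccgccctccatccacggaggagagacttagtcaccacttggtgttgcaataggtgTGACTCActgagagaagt

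TTTGAA stood in 5 of the 11 proliferation genes called lower that had a promoter in the table (*Mki67*, *Hmgb2*, *Ccnb2*, *Ube2c* and *Iqgap3*), and CCAAT in 6 of the 11 (*Mki67*, *Mcm3*, *Hmgb2*, *Ccnb1*, *Ccnb2* and *Ube2c*). Among all 27025 gene symbols the shares were 18.3% and 37.5%, and among all 32851 promoters 16.0% and 33.8%. TGANTCA was found in none of these 11 and in 4 of the 15 markers and largest rises (*Cybrd1*, *Psapl1*, *Sprr1a* and *Dhrs9*), against 7.82% of gene symbols and 6.75% of promoters. CCAAT and TTTGAA stood in 4 and 3 of these 15. The *Ube2c* window held 6 CCAAT boxes counted over both strands, 2 of which overlap. A match is a description of the letters, and binding was not measured.

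More genes listed as pit cell products rose than fell. Of 19 genes tested 8 were called higher and 6 lower with all cells (42.1% and 31.6%, median log2 fold change 0.42), and 10 and 2 of 18 without the 2 goblet-marker cells (55.6% and 11.1%, median 0.80), against 8.89% and 5.69% of all genes in that fit. *Muc5ac* (chromosome 7, 141342709 to 141372968, plus strand), the gel-forming mucin of the surface, was at 9335 and 11518 CPM in mature pit and 3702 and 3941 CPM in pre-pit cells (log2 fold change 1.45, SE 0.16, adjusted p = 1.44e-05). *Psca* (chromosome 15, 74586682 to 74588918, plus strand), a GPI-anchored surface protein, stood at 9072 and 8444 against 2002 and 1764 CPM (log2 fold change 2.22, SE 0.16, adjusted p = 1.21e-07). Both genes were higher on 6 of 6 plates.

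*Mucl3*, a mucin-like protein, rose by a log2 of 2.15 (SE 0.43, adjusted p = 0.00237), from 1713 and 1989.8 to 8459.9 and 7944 CPM. The calpains *Capn8* and *Capn9*, proteases of gastric surface mucous cells, rose by a log2 of 3.53 (SE 0.37, adjusted p = 1.73e-05) and 2.01 (SE 0.21, adjusted p = 1.44e-05). *Capn8* went from 6.65 and 14.3 to 116 and 110.4 CPM. The abundant gastrokines rose less: *Gkn1* by 1.08 (SE 0.19, adjusted p = 0.000768) and *Gkn2* by 0.89 (SE 0.17, adjusted p = 0.00150). The aspartic protease *Ctse* rose by a log2 of 0.82 (SE 0.17, adjusted p = 0.00392). *Tff1*, the trefoil factor of the surface, was at 57269 and 57999 against 36329 and 40432 CPM (log2 fold change 0.59, SE 0.34, adjusted p = 0.286), which did not pass. *Tff2*, the trefoil factor of gland mucous cells, was at 16183 and 19779 against 20749 and 22165 CPM (log2 fold change -0.26, SE 0.24, adjusted p = 0.544), and did not pass either, although the pools of the clusters did not overlap.

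For 4 mucus-layer genes the direction turned on the 2 goblet-marker cells. *Fcgbp*, a mucin-binding protein of the mucus gel, was at 397 and 567.8 CPM in mature pit cells and at 1580.2 and 3525 CPM in pre-pit cells, and at 28.4 and 19.4 CPM there without the pair. Its log2 fold change went from -2.41 (SE 0.29, adjusted p = 4.70e-05) to 4.26 (SE 0.30, adjusted p = 7.59e-08). *Clca1*, a metalloprotease of mucus, had 631 and 637 CPM in mature pit cells, 349.8 and 2532 in pre-pit cells and 42.0 and 121 CPM without the pair, and -1.16 (SE 0.51, adjusted p = 0.150) became 3.09 (SE 0.36, adjusted p = 1.14e-05). *Spink4*, a secreted protease inhibitor, went from -0.74 (SE 0.38, adjusted p = 0.217) to 1.08 (SE 0.30, adjusted p = 0.0179), and *Zg16* from -6.82 (SE 0.75, adjusted p = 1.78e-05) to 3.36 (SE 0.87, adjusted p = 0.0134). For *Zg16* 4 pre-pit UMIs were left without the pair, and 1 mature pit cell held 86.0% of the UMIs of its cluster. *Fcgbp* was spread over 35 of 49 mature pit cells (71.4%, 34.7% after thinning), with 16.7% of its UMIs in the highest cell, against 3.51% of parietal cells. *Bpifb1* also rested on a single cell, on plate 24, with 99.0% of the pre-pit UMIs: its log2 fold change of -6.19 (SE 1.40, adjusted p = 0.00583) became 0.17 without that plate. That cell is the pre-pit cell with *Basp1* UMIs.

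Of 17 keratins, desmosomal and envelope genes 11 were called higher and none lower (64.7%, against 8.29% of all genes, median 0.72), the same count with and without the 2 cells. *Ly6d*, a GPI-anchored protein of stratifying epithelia, was at 216 and 116 CPM in mature pit and 14.6 and 22.4 CPM in pre-pit cells (log2 fold change 3.25, SE 0.56, adjusted p = 0.000829). *Dsg2*, a desmosomal cadherin, went from 234 and 226 to 507 and 443 CPM (log2 fold change 1.04, SE 0.16, adjusted p = 0.000328), with each pool and each of 6 plates higher in mature pit cells. *Evpl*, envoplakin, rose by a log2 of 1.17 (SE 0.33, adjusted p = 0.0217) and *Dsp*, desmoplakin, by 0.72 (SE 0.15, adjusted p = 0.00280). Among the simple keratins *Krt19* rose by a log2 of 0.80 (SE 0.16, adjusted p = 0.00196) and *Krt8* by 0.71 (SE 0.14, adjusted p = 0.00204). *Krt18*, the usual partner of *Krt8*, was at 1525 and 1592 against 1657 and 1358 CPM (log2 fold change 0.05, SE 0.13, adjusted p = 0.881), so that the pools of mature pit cells fell between those of pre-pit cells.

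Of 26 genes of the apical actin cytoskeleton 12 were called higher and 2 lower with all cells (46.2% and 7.69%, against 8.29% and 5.66% of all genes, median 0.49), and 15 of 24 higher and none lower without the 2 cells (62.5%, median 0.53). The lower pair, *Cdhr2* and *Cdhr5*, are cadherins of intestinal microvilli. *Myo1e*, a class I myosin, was at 98.2 and 93.5 CPM in mature pit and 27.9 and 51.0 CPM in pre-pit cells (log2 fold change 1.36, SE 0.22, adjusted p = 0.000442). The microvillus bundlers *Vil1* and *Espn* rose by a log2 of 0.66 (SE 0.17, adjusted p = 0.0154) and 0.91 (SE 0.21, adjusted p = 0.00706), the actin capper relative *Eps8l2* by 0.86 (SE 0.19, adjusted p = 0.00429) and the membrane linker *Ezr* by 0.61 (SE 0.14, adjusted p = 0.00573). The 6 enterocyte markers summed to 956 and 1059 in 1e+06 UMIs in mature pit and 506 and 701 in pre-pit cells, mostly *Fabp2*, a fatty acid carrier of enterocytes (log2 fold change 1.16, SE 0.38, adjusted p = 0.0514, and 1.37 (SE 0.37, adjusted p = 0.0161) without the 2 cells), while *Anpep* had no UMI in mature pit cells. Their part in these rises was not tested. Of the tight junction genes 3 of 16 were called higher and 2 lower (18.8% and 12.5%), and 3 of 15 and none without the 2 cells (median 0.31). *F11r*, the junctional adhesion molecule JAM-A, rose by a log2 of 0.83 (SE 0.18, adjusted p = 0.00430) and the scaffold *Patj* by 0.84 (SE 0.23, adjusted p = 0.0189).

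**Figure D4:**
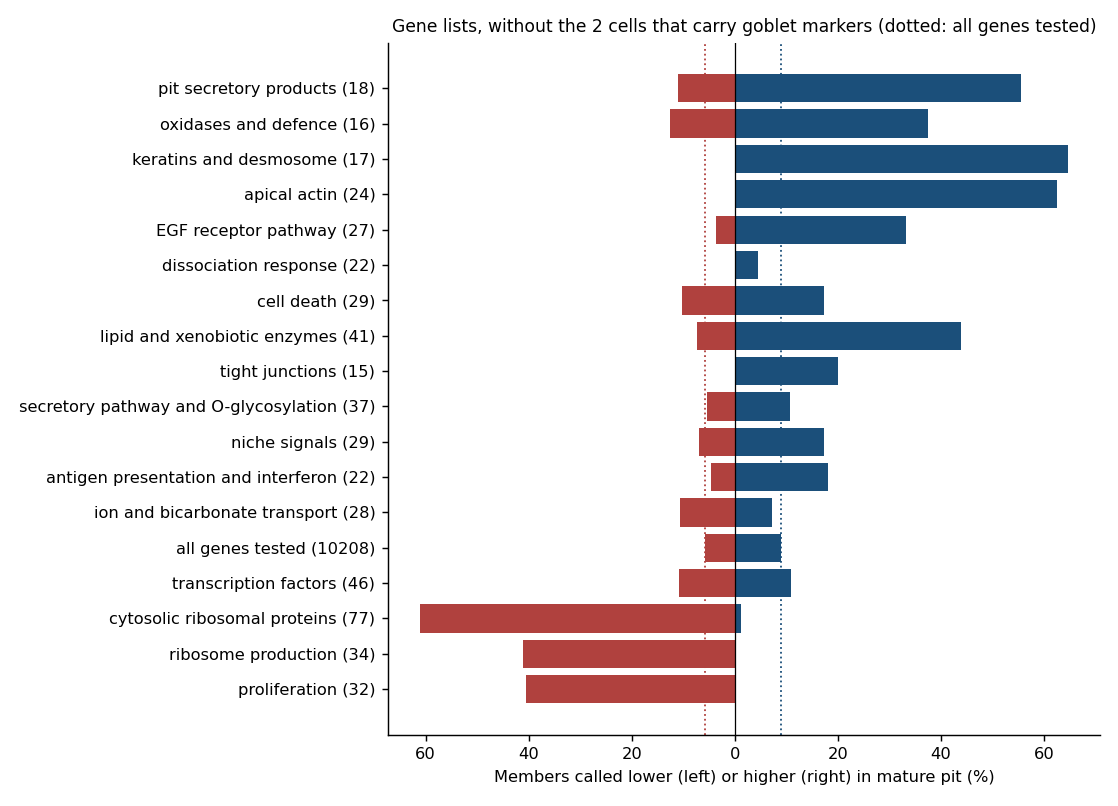
Share of the tested genes of each list (horizontal axis, percent) called higher or lower in antrum mature pit than in pre-pit cells at an adjusted p of 0.05, without the 2 goblet-marker cells, with all 10208 genes tested for comparison (8.89% higher, 5.69% lower). Keratin and desmosome (64.7%) and apical actin genes (62.5%) have the largest shares higher, and cytosolic ribosomal proteins (61.0%), ribosome production (41.2%) and proliferation genes (40.6%) the largest shares lower.

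Of 41 tested enzymes of lipid and xenobiotic metabolism 18 were called higher and 2 lower (18 and 3 without the 2 cells, 43.9% and 7.32%, against 8.89% and 5.69% of all genes, median 0.32). *Fabp5*, a fatty acid carrier, was at 1113 and 1233 CPM in mature pit and 262 and 220.2 CPM in pre-pit cells (log2 fold change 2.27, SE 0.19, adjusted p = 8.66e-07). *Cyp2s1*, a cytochrome P450 of epithelia, stood at 736 and 606 against 194 and 159.02 CPM (log2 fold change 1.91, SE 0.21, adjusted p = 1.38e-05). In each case all pools of one cluster lay above all of the other. The aldehyde dehydrogenases *Aldh3b2*, *Aldh3a1* and *Aldh1a1* rose by 2.68, 1.63 and 1.51 on the log2 scale (adjusted p = 0.00267, 5.48e-06 and 4.91e-05). *Hmgcs1*, an enzyme of cholesterol synthesis, rose by a log2 of 0.98 (SE 0.16, adjusted p = 0.000556).

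Glutathione transferases split. *Gsta1* went from 3010.0 and 2767 to 6989 and 7155 CPM (log2 fold change 1.29, SE 0.21, adjusted p = 0.000479), and *Gsto1* from 6463 and 6228 to 11482 and 11030.2 CPM (log2 fold change 0.83, SE 0.12, adjusted p = 0.000152). *Gstm1* was the reverse, with 3005 and 2729.8 CPM in pre-pit and 1404 and 1426 CPM in mature pit cells (log2 fold change -1.02, SE 0.18, adjusted p = 0.000739). No plate went against the cluster order in any of the 3. These enzymes have close paralogs, and how reads shared between paralogs were counted is not given in the sources used here.

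In the EGF receptor pathway 9 of 27 tested genes were called higher and 1 lower (33.3% and 3.70%, against 8.29% and 5.66% of all genes, with a median of 0.28, and 0.44 without the 2 cells). Among the ligands, *Areg*, amphiregulin, was at 157 and 143 CPM in mature pit and 53.2 and 16.3 CPM in pre-pit cells (log2 fold change 1.99, SE 0.31, adjusted p = 0.000283). *Tgfa*, transforming growth factor alpha, went from 55.9 and 61.2 to 112 and 106 CPM (log2 fold change 0.92, SE 0.18, adjusted p = 0.00250). For *Areg* the 2 goblet-marker cells held 31.2% of the pre-pit UMIs, and without them its log2 fold change was 2.48 (SE 0.34, adjusted p = 7.77e-05). The ligand *Btc*, betacellulin, rose by a log2 of 0.89 (SE 0.29, adjusted p = 0.0470), and *Hbegf* stood at 60.3 and 59.7 against 37.2 and 20.4 CPM (log2 fold change 0.98, SE 0.46, adjusted p = 0.180).

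The receptor *Egfr* itself was at 65.9 and 49.7 CPM in mature pit and 31.9 and 24.5 CPM in pre-pit cells (log2 fold change 1.03, SE 0.26, adjusted p = 0.0136). Downstream, the kinase gene *Map2k1* rose by a log2 of 0.88 (SE 0.15, adjusted p = 0.000562). *Plaur*, the urokinase receptor, rose by a log2 of 1.98 (SE 0.34, adjusted p = 0.000818) and *Phlda1* by 1.08 (SE 0.21, adjusted p = 0.00174). *Fosl1*, an AP-1 subunit, had 63 UMIs in mature pit and 3 in pre-pit cells, a TMM-scaled ratio of 10 (95% counting interval 3.27 to 49.8). *Etv5*, an ETS factor, was the member that fell, from 12 and 10.2 to 2.49 and 0 CPM (log2 fold change -2.80, SE 0.74, adjusted p = 0.0184).

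Oxidases and defence genes were called higher in 4 and lower in 2 of 16 tested (against 8.29% and 5.66% of all genes), and in 6 and 2 without the 2 cells. *Il33*, a nuclear alarmin cytokine of barrier cells, was at 129 and 219 CPM in mature pit and 20 and 14.3 CPM in pre-pit cells (log2 fold change 3.26, SE 0.40, adjusted p = 3.85e-05), and 27 of 49 and 7 of 32 cells held a UMI of it (55.1% and 21.9%, 32.7% and 12.5% after thinning), against 5.26% of parietal cells. *Il18*, another epithelial cytokine, rose by a log2 of 0.88 (SE 0.19, adjusted p = 0.00363), and *Noxa1*, an activator subunit of NADPH oxidase, by 1.99 (SE 0.41, adjusted p = 0.00320). *Pigr*, the receptor that carries IgA through epithelia, went from 113 and 63.2 to 4.97 and 9.94 CPM (log2 fold change -3.71, SE 0.76, adjusted p = 0.00296), and from 82.6 and 19.4 CPM without the 2 cells (log2 fold change -3.01, SE 0.87, adjusted p = 0.0243). *Lypd8*, a secreted antibacterial protein, was at 2206 and 1085 against 309.9 and 1164 CPM (log2 fold change 1.19, SE 0.52, adjusted p = 0.145), and with 275 and 233 CPM in the remaining pre-pit cells it gave 2.69 (SE 0.45, adjusted p = 0.000403). *Duox2*, a hydrogen peroxide-producing oxidase, had 12 and 7 UMIs in mature pit cells and 0 in pre-pit cells (adjusted p = 0.165).

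Of 28 ion and bicarbonate transport genes 2 were called higher and 3 lower (7.14% and 10.7%, median 0.04), near the shares of all genes. Besides *Aqp3*, the potassium channel *Kcnk5* rose, from 6.65 and 18.3 to 35.4 and 36.8 CPM (log2 fold change 1.65, SE 0.43, adjusted p = 0.0153). The chloride channel relative *Clic6* fell with a log2 fold change of -1.21 (SE 0.29, adjusted p = 0.00949). *Car2*, carbonic anhydrase 2, was at 5513 and 6190.3 against 4997 and 4850.1 CPM (log2 fold change 0.25, SE 0.13, adjusted p = 0.218).

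Of 32 proliferation genes tested 13 were called lower (40.6%, against 5.66% of all genes), none higher, and 19 did not pass (median -1.45). *Mki67*, the marker of cycling cells, was at 35.9 and 28.5 CPM in pre-pit and 3.73 and 0.994 CPM in mature pit cells (log2 fold change -3.57, SE 0.47, adjusted p = 7.86e-05). *Ccnb2*, cyclin B2, stood at 83.8 and 30.6 against 2.49 and 0 CPM (log2 fold change -5.23, SE 0.76, adjusted p = 0.000181), and *Ube2c*, the ubiquitin-conjugating enzyme of mitotic exit, at 69.2 and 89.7 against 7.46 and 5.97 CPM (log2 fold change -3.48, SE 0.41, adjusted p = 2.35e-05). The TMM-scaled ratio, pre-pit over mature pit, was 174 (95% counting interval 30.4 to 6962) for *Ccna2* and 77.6 (13.1 to 3149) for *Knstrn*, a kinetochore protein. It was 69.3 (18.4 to 584) for *Birc5*, survivin of the chromosomal passenger complex.

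Few cells carried these UMIs. The deposited cell cycle phases were G1 for 49 of 49 mature pit cells, and for pre-pit cells G1 in 22, S in 1 and G2/M in 9 (6 of pool 1 and 3 of pool 2). These 9 cells held 450 of the 504 pre-pit UMIs (89.3%) of 7 cell cycle genes but 27.9% of all pre-pit UMIs. At least 10 UMIs of the 7 genes were found in 7 pre-pit cells and in 1 mature pit cell. The phases were computed by the study from the same counts and are no separate measurement. Among DNA replication genes *Pcna*, the sliding clamp, was at 57.2 and 51.7 CPM in mature pit and 37.2 and 67.3 CPM in pre-pit cells (log2 fold change 0.14, SE 0.35, adjusted p = 0.860), and *Tyms*, thymidylate synthase, fell with a log2 fold change of -0.95 (SE 0.25, adjusted p = 0.0141). *Cdk4* and *Ccnd2*, which act in G1, fell with a log2 fold change of -1.31 (SE 0.25, adjusted p = 0.00191) and -1.16 (SE 0.28, adjusted p = 0.00993). The stem cell genes *Lgr5* and *Axin2* had no UMI in either cluster.

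Of 34 genes of ribosome production 13 were called lower and none higher (38.2%, against 5.66% of all genes, median -0.74). *Npm1*, nucleophosmin, was at 364 and 544 CPM in pre-pit and 135 and 149 CPM in mature pit cells (log2 fold change -1.66, SE 0.19, adjusted p = 1.69e-05). *Gnl3*, nucleostemin, went from 34.6 and 26.5 to 4.97 and 5.97 CPM (log2 fold change -2.52, SE 0.35, adjusted p = 0.000124), and *Ncl*, nucleolin, fell with a log2 fold change of -1.08 (SE 0.15, adjusted p = 0.000106). All 3 were lower on 6 of 6 plates. The ribosomal proteins themselves, a list added after the data had been seen, were called lower in 45 and higher in 1 of 77 tested (median -0.55), and many have pseudogenes that can share their reads. The one called higher, *Rps29*, named after its values had been seen, had 22 and 17 UMIs in the mature pit sums and 2 and 2 in the pre-pit sums (log2 fold change 2.18, SE 0.61, adjusted p = 0.0214). Transcripts of the mitochondrial genome passed in neither direction (0 of 12, median 0.05).

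Of 46 transcription factors 5 were called higher and 8 lower (10.9% and 17.4%, against 8.29% and 5.66% of all genes). Without the 2 cells 5 and 5 were (10.9% each, against 8.89% and 5.69%). *Tcf23*, a basic helix-loop-helix factor, was at 193 and 213 CPM in mature pit and 71.8 and 69.3 CPM in pre-pit cells (log2 fold change 1.51, SE 0.24, adjusted p = 0.000324). *Grhl1*, a grainyhead factor of barrier epithelia, rose by a log2 of 1.28 (SE 0.32, adjusted p = 0.0113), *Foxa3* by 0.89 (SE 0.20, adjusted p = 0.00627), *Pparg* by 0.67 (SE 0.17, adjusted p = 0.0127) and *Klf4* by 0.50 (SE 0.16, adjusted p = 0.0474). *Myc*, a driver of growth, went the other way, from 42.6 and 51.0 to 5.59 and 4.97 CPM (log2 fold change -3.08, SE 0.45, adjusted p = 0.000186). *Sox9*, a progenitor factor, fell with a log2 fold change of -1.80 (SE 0.31, adjusted p = 0.000767), *Foxa1* with -0.85 (SE 0.14, adjusted p = 0.000699) and *Klf5* with -0.56 (SE 0.16, adjusted p = 0.0221). *Sox4* fell with a log2 fold change of -3.54 (SE 1.03, adjusted p = 0.0261) with 66.7% of its pre-pit UMIs in 1 cell. *Pdx1*, which marks the antrum, was at 45.4 and 35.8 against 47.9 and 46.9 CPM (log2 fold change -0.21, SE 0.41, adjusted p = 0.810).

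Secretory pathway and O-glycosylation genes gave 3 calls higher and 3 lower of 37 (8.11% each, against 8.29% and 5.66% of all genes), and 4 and 2 without the 2 cells (median 0.13). *P4hb*, a protein disulfide isomerase, rose from 976 and 836 to 1599 and 1757 CPM (log2 fold change 0.89, SE 0.14, adjusted p = 0.000274). The glycosyltransferases *Fut4* and *B3gnt3* rose by a log2 of 1.22 (SE 0.29, adjusted p = 0.00767) and 0.78 (SE 0.18, adjusted p = 0.00713), while the sulfotransferase *Chst4* fell as given above. *Ern2*, the stress sensor of mucous cells, fell with a log2 fold change of -0.71 (SE 0.20, adjusted p = 0.0215) and missed the threshold without the pair (log2 fold change -0.52, SE 0.19, adjusted p = 0.0715).

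Among cell death and arrest genes 4 of 30 were called higher and 4 lower (13.3% each, against 8.29% and 5.66% of all genes), and 5 and 3 of 29 without the 2 cells (median 0.33). *Cdkn1a*, the cell cycle inhibitor p21, was at 479 and 313 CPM in mature pit and 79.8 and 77.5 CPM in pre-pit cells (log2 fold change 2.34, SE 0.36, adjusted p = 0.000296), higher on 6 of 6 plates. *Bok*, a BCL-2 relative, rose by a log2 of 1.42 (SE 0.26, adjusted p = 0.00114). The fallers *Gsdmc2*, *Gsdmc3* and *Gsdmc4* are neighbouring paralogs on chromosome 15 (63696195 to 63784146), between which reads may have been split. *Gsdmc2* had 87 and 6 UMIs in the pre-pit pools and 4 and 4 in the mature pit pools (log2 fold change -4.50, SE 1.08, adjusted p = 0.00937), a fall carried mainly by pool 1.

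Of 29 niche signal genes 4 were called higher and 2 lower (13.8% and 6.90%, against 8.29% and 5.66% of all genes), and 5 and 2 without the 2 cells (median 0.09). *Shh*, sonic hedgehog, rose from 51.9 and 65.2 to 147 and 162.1 CPM (log2 fold change 1.42, SE 0.20, adjusted p = 0.000152), whereas *Ihh*, Indian hedgehog, fell from 98.4 and 71.4 to 41.0 and 44.7 CPM (log2 fold change -1.03, SE 0.22, adjusted p = 0.00353). The pools of the clusters overlapped for neither ligand. *Bmp2* rose by a log2 of 1.18 (SE 0.22, adjusted p = 0.00136) and the Wnt receptor *Fzd5* by 0.68 (SE 0.16, adjusted p = 0.00629), and *Cd44*, a hyaluronan receptor of progenitor cells, fell with a log2 fold change of -1.76 (SE 0.52, adjusted p = 0.0303). Antigen presentation and interferon genes were called higher in 3 and lower in 1 of 23 (against 8.29% and 5.66% of all genes). Without the 2 cells 4 of 22 were called higher and 1 lower. With all cells the class I gene *H2-D1* was at 0.63 (SE 0.15, adjusted p = 0.00817). *Tapbp*, tapasin of class I peptide loading, was at 0.60 (SE 0.19, adjusted p = 0.0383). The interferon-induced *Oasl1* was at 0.92 (SE 0.20, adjusted p = 0.00451) and *Ifitm2* at -2.47 (SE 0.39, adjusted p = 0.000319). Class I heavy chains are near-copies of each other, and their values are uncertain for that reason. Of 22 genes known to respond to tissue dissociation 1 was called higher, *Fos* (log2 fold change 0.96, SE 0.29, adjusted p = 0.0327), and 1 lower, *Fosb*, which lay mostly in 1 goblet-marker cell and did not pass without the pair (log2 fold change -1.74, SE 2.02, adjusted p = 0.642).

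The same contrast in the corpus asked which of these differences are shared between the regions. In dataset 1 corpus mature pit cells (cluster 8, 26 cells) and corpus pre-pit cells (cluster 2, 46 cells) came from the same pools, and 1323 of 10229 genes passed (12.9%), 724 higher (7.08%) and 599 lower (5.86%) in mature pit cells. The difference between the antrum and the corpus contrasts was tested for each gene, and 3 genes passed (0.0293%), with 620 genes at an unadjusted p under 0.05 and 12 calls by DESeq2. When the fit held the pool as a block, 12 genes passed, and without the 2 goblet-marker cells 7. Without plate 29 no gene passed by edgeR (468 at an unadjusted p under 0.05) or by DESeq2, and without plate 24 only 1 did by edgeR. A gene called in one region and not in the other is therefore not shown to differ between them.

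*Cwh43* (chromosome 5, 73563357 to 73610778, plus strand), known for lipid remodelling of GPI anchors, was at 383 and 341 CPM in antrum mature pit and 82.5 and 59.1 CPM in antrum pre-pit cells (log2 fold change 2.32, SE 0.20, adjusted p = 9.85e-07). In the corpus it stood at 234 and 161 against 154 and 154 CPM (log2 fold change 0.36, SE 0.18, adjusted p = 0.209), and the difference of the log2 fold changes was 1.96 (SE 0.27, adjusted p = 0.00510). The antrum pools thus separated by cluster and the corpus pools by far less. In dataset 2, which holds corpus cells of 2 other pools of mice, the log2 fold change was -0.19 (SE 0.10, adjusted p = 0.266).

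*Aldh3a1* (chromosome 11, 61098363 to 61109247, plus strand), an aldehyde dehydrogenase, was at 1268 and 1479 against 488 and 396 CPM in the antrum (log2 fold change 1.63, SE 0.16, adjusted p = 5.48e-06) and at 2191 and 2464 against 2048 and 1816 CPM in the corpus (log2 fold change 0.27, SE 0.15, adjusted p = 0.265). The difference was 1.36 (SE 0.22, adjusted p = 0.0229). In dataset 2, however, corpus mature pit cells exceeded pre-pit cells by 1.24 (SE 0.21, adjusted p = 0.00192).

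*H2-T23* (chromosome 17, 36340229 to 36345571, minus strand), a nonclassical class I gene, was at 111 and 90.5 CPM in antrum mature pit and 97.1 and 104 CPM in antrum pre-pit cells (log2 fold change 0.03, SE 0.16, adjusted p = 0.953), with overlapping pools. In the corpus it went from 19.1 and 23.4 to 97.4 and 91.2 CPM (log2 fold change 2.18, SE 0.21, adjusted p = 6.40e-06), and the difference was -2.15 (SE 0.27, adjusted p = 0.00206). The 2 goblet-marker cells held 25.8% of its antrum pre-pit UMIs, and without them the antrum contrast was 0.44 (SE 0.20, adjusted p = 0.156) and the difference -1.74 (SE 0.31, adjusted p = 0.0458). Dataset 2 gave 2.26 (SE 0.18, adjusted p = 5.58e-06) for the corpus.

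**Figure D5:**
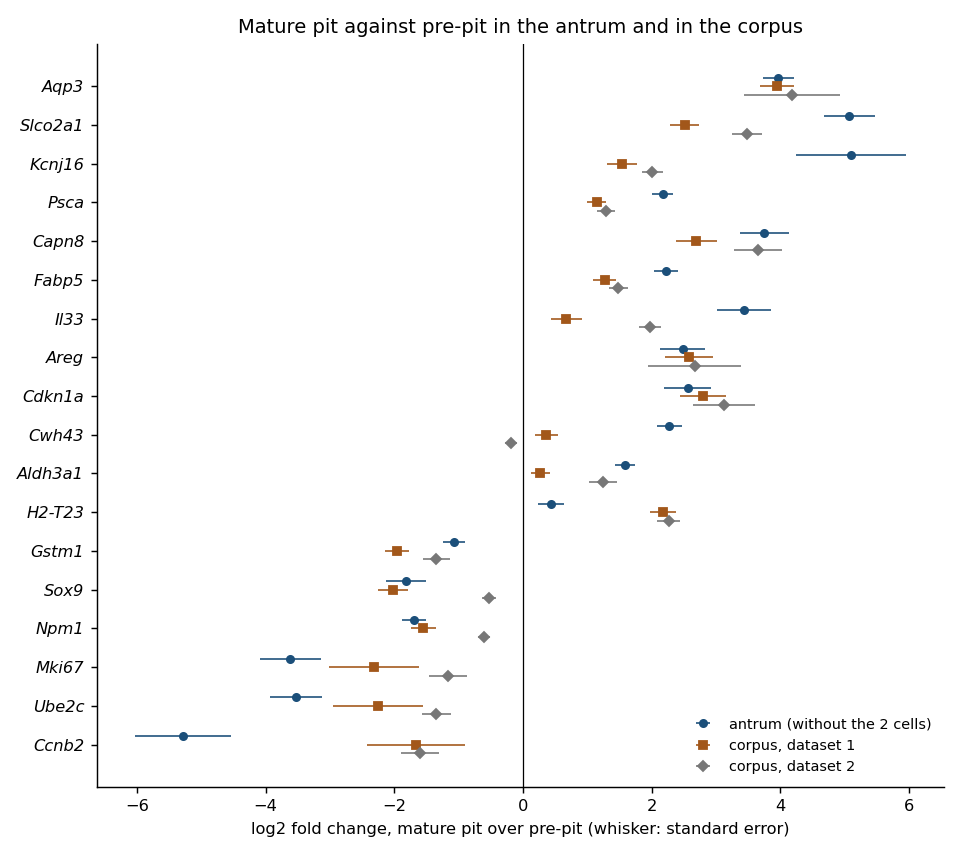
Log2 fold change, mature pit minus pre-pit (horizontal axis), of 18 genes in the antrum without the 2 goblet-marker cells and in the corpus of datasets 1 and 2; whiskers are standard errors, and the antrum value of *Kcnj16* rests on 1 pre-pit UMI. *Cwh43* lies at 2.27 in the antrum and at 0.36 and -0.19 in the corpus, and *Aqp3* at 3.97, 3.95 and 4.18.

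For other genes the values of both regions stand side by side, without a call for the difference. *Krt20*, at 975 and 705 CPM in antrum mature pit cells, was at 135 and 57.0 CPM in corpus mature pit and 0.708 and 1.17 CPM in corpus pre-pit cells, where its sums held 1 UMI each (adjusted p = 2.08e-05). *Slco2a1* had log2 fold changes of 2.51 and 3.48 in the corpus of datasets 1 and 2 (edgeR, adjusted p = 5.24e-06 and 1.25e-06), and *Psapl1* of 2.92 and 3.08. *Chst4* had no UMI in corpus mature pit cells of dataset 1, against 63.0 and 39.7 CPM in pre-pit cells (adjusted p = 0.000112). In dataset 2 its log2 fold change was -0.06 (SE 0.23, adjusted p = 0.914). *Sprr1a* had 4.24 (SE 0.89, adjusted p = 0.00392) in dataset 1 and 0.32 (SE 1.57, adjusted p = 0.944) in dataset 2. *Muc5ac* had 0.55 (SE 0.16, adjusted p = 0.0245) in dataset 1 and 0.28 (SE 0.27, adjusted p = 0.603) in dataset 2. *Krt7*, with its rise of 1.80 in the antrum, had -0.56 (SE 0.92, adjusted p = 0.754) and -0.17 (SE 0.58, adjusted p = 0.909). *Tff2* was lower in corpus mature pit cells, with -1.51 (SE 0.24, adjusted p = 0.000464) and -0.87 (SE 0.21, adjusted p = 0.0169), where the antrum value was -0.26.

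Dataset 2 shares neither mice nor plates with the antrum cells, and 1439 of its 13894 genes tested passed between 121 corpus mature pit and 291 pre-pit cells (10.4%), 906 higher (6.52%) and 533 lower (3.84%). Of 10130 genes tested in both, 842 were called higher in antrum mature pit cells, and 813 of these (96.6%) were also higher in corpus mature pit cells of dataset 2, a direction taken by 48.2% of all genes. There 452 of the 842 were called higher (53.7%, against 8.28% of all genes), which is 53.9% of the 839 genes called higher in dataset 2. Of 567 called lower in the antrum 516 (91.0%) had the same direction, against 51.7% of all genes, and 216 (38.1%) were called lower, against 5.10% of all genes, which is 41.8% of 517. The lists followed unevenly. Antigen presentation and interferon genes were called higher in 19 of 23 in the corpus of dataset 2 (median 1.98). In the corpus of dataset 1 they were in 3 of 23 (median 0.47), and in the antrum in 3 of 23 (median 0.00). Without the 2 goblet-marker cells the antrum had 4 of 22 (median 0.08), and without the *Basp1* cells too 5 of 21 (median 0.49). Proliferation genes were called lower in 5 and higher in 2 of 32 in dataset 2 (median -0.15), in 17 of 32 in the corpus of dataset 1 (median -1.89) and in 13 of 32 in the antrum. The datasets differ in the order of the dissociation enzymes, in the stains used to sort and in the reverse transcription primers. They were also clustered apart by the study. In dataset 2 it split isthmus progenitor cells into clusters by cell cycle phase, whereas antrum pre-pit cells of dataset 1 included 9 called G2/M. The part of these differences in the counts was not tested. The fits of the datasets were separate, so these values stand side by side and were not compared by a test.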

How the data were processed

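UMI counts per gene were deposited by the authors for single cells of the mouse stomach measured by Quartz-Seq2, with an annotation that gives each cell's cluster, pool, plate and cell cycle phase. The authors had demultiplexed reads with bcl2fastq 2.20.0.422, aligned them to GRCm39 with STAR, counted UMIs with Drop-seq tools and kept cells with at least 2500 detected genes. Fractions of mitochondrial UMIs, as percent, were deposited by the authors in the same annotation. Dead cells were removed and single cells gated at sorting, and no doublet caller was run here. Totals and detected genes of 491 of 491 cells equalled the annotation, and 0 table lines named no gene.

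Counts were summed over the cells of a cell type in each pool for 7 epithelial types, giving 14 sums with 7 residual degrees of freedom. Differences were tested with edgeR 4.0.16 (quasi-likelihood, TMM, filterByExpr; R 4.3.3) and adjusted by Benjamini-Hochberg over 10229 genes at 0.05. Standard errors come from the log2 fold change and its F value. The corpus of dataset 2 was fitted apart (12 sums, 6 residual degrees of freedom, 13894 genes). Pools of both clusters hold cells of the same mice, and the pool was a block in an alternative fit. Deviations of the pools correlated at 0.0361 between the antrum clusters and between -0.0287 and 0.0533 over the 21 pairs of types. Tested on simulated data for the antrum comparison with 10041 genes, the fit recovered 63% of 100 genes changed by a log2 of 1. It recovered 89% of 100 changed by 2, with 9 false calls. The counts were drawn independently with the fit's own trended dispersion, and only genes above a minimum mean count were changed. They held no cells that stood apart and no clustering on the same counts, so the simulation cannot show error from these.

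The clusters, genes and lists were chosen with earlier results of these data known. Named are *Aqp3*, *Krt20* and *Krt7*, the 12 largest rises and falls among called genes that moved one way in both pools and had 10 UMIs or more in each pool of the cluster where they were higher, list members (up to 4 called with the largest change, others for their role) and the largest differences between regions. Genes with 0 UMIs in one cluster are given against a floor of 3 UMIs per sum. Ratios resting on 1 to 3 UMIs are scaled by the TMM-scaled totals of the clusters and given with exact 95% intervals. Intervals and floors cover counting error only. Gene positions are from GENCODE on GRCm39 and promoter sequences from RefSeq (GRCm38.p6 table, placed on GRCm39). Alternatives were DESeq2 1.42.0, its size factors, no filter, fewer clusters, the plate as unit, thinning to 10000 UMIs per cell, a minimum of 4000 genes per cell, and leaving out each sum or plate, plus, chosen after seeing the data, leaving out 2 goblet-marker and 4 *Basp1* cells. Python 3.11.15 with pandas 2.3.3 and numpy 2.4.6 was used. Some list members are counted but not reported here by name.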

Additional observations from a re-analysis of the deposited data

Results flagged for a closer look

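The 2 antrum pre-pit cells of plate 24 had a median of 5014 detected genes, the value farthest from the other plates, which lay closer together. One of the pair is the goblet-marker cell of pool 1. Cell numbers, UMIs, detected genes, mitochondrial percent and the markers *Aqp3*, *Krt20* and *Krt7* were screened by plate in each cluster. No other of these values was flagged. Chance alone sets about 1 in 20 such groups of plate values apart.

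*Cwh43* differed between regions by a log2 of 1.96. Its adjusted p (edgeR) was above 0.05 without the pre-pit sum of pool 2 (log2 1.78, adjusted p = 0.0577), plate 23 (0.0531), plate 29 (0.110) and plate 31 (0.0649). *Aldh3a1* differed by a log2 of 1.36 between regions, and its adjusted p was above 0.05 with the plate as the unit (0.195), without the mature pit sum of pool 2 (0.171) or the pre-pit sum of pool 2 (0.148), without either corpus sum of pool 1 (0.0560 and 0.148) and without plates 23, 24 or 29 (0.124, 0.206 and 0.951).

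*H2-T23* differed by a log2 of -2.15 between regions. Its adjusted p was 0.155 with the plate as the unit, 0.185 and 0.224 without plates 24 and 29, and 0.210 with a log2 of -1.35 without the goblet-marker and *Basp1* cells. The goblet-marker cells lie on plates 24 and 29.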

How the results depend on the processing

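Antrum calls numbered 696 by DESeq2, 419 after thinning each cell to 10000 UMIs, and 624 to 1297 when a sum or a plate was left out, against 1427. The other alternatives gave 1336 to 1588. Region differences numbered 12 by DESeq2, 97 with no filter, 8 with the 4 pit clusters alone, 8 after thinning, 7 without the goblet-marker cells, and 0 to 8 when a sum or a plate was left out, against 3. With the pool as a block they numbered 12, while antrum calls (1481) and corpus calls of dataset 1 (1405) and dataset 2 (1974) moved by less than 1.5 times, and 80 of 80 refitted named genes kept their call. Without the goblet-marker cells the log2 fold change reversed for *Gm1123* (0.81), *Zg16* (3.36) and *Cldn7* (0.19), besides *Fcgbp*, *Clca1* and *Spink4* as given above, and was 0.00 for *Cdx1*, and without the *Basp1* cells too it was 0.86, 3.43 and 0.24 for *Gm1123*, *Zg16* and *Cldn7*. Left-out sums and plates moved *Bpifb1* between -7.01 and 0.17, the latter without plate 24. With at least 4000 genes per cell the pre-pit medians were 40447.5 UMIs and 4.83% mitochondrial UMIs. Of the 80 named genes 33 passed in every refit that tested them. A gene filtered out of a refit did not count against it: the plate as the unit tested 60 of the 80. After thinning 21 of 65 lost their call. Calls were also lost without the mature pit or the pre-pit sum of pool 1. The causes were not tested. Depth limits low genes: 3 UMIs in each sum stand for 5.05 CPM in pre-pit and 2.42 CPM in mature pit cells.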
